A study of Caenorhabditis elegans with 2 samples.

Results

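The nuclear hormone receptor genes examined here are the protein-coding genes of Caenorhabditis elegans whose symbol is nhr- followed by a number. Ensembl WBcel235 holds 269 of them among 19973 protein-coding genes, which leaves 19704 others. They were followed through a chromatin immunoprecipitation sequencing (ChIP-seq) study of JUN-1, the worm Jun protein of the bZIP class. The study has 1 group with 2 biological replicates, and therefore no contrast between conditions and no test between groups. Each replicate is a sample of whole L3 larvae of strain OP234, genotype unc-119(ed3) III; wgIs234, with males and females pooled and the age not known. Both replicates carry the same unc-119 mutation and the same integrated transgene, and all worms descend from 1 strain, so another insertion of the transgene was not compared. The transgene carries JUN-1 joined to eGFP, and the antibody field of the labels names jun-1. Because the samples are whole larvae, a region found in a few cells and a weaker one found in many cannot be told apart.

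The authors deposited a list of regions for each replicate, 27417 for replicate 1 and 28475 for replicate 2, a list of 20820 regions from the pooled replicates, and an IDR list of 2738 peaks. IDR, the irreproducible discovery rate, measures how alike replicates rank the same regions. Every region carries a signal value, a score made by the authors' peak calling whose scale is not stated, so it is used to rank and describe regions within a list. A gene is called bound when an IDR summit lies in its promoter window, at most 1000 bp before or 500 bp after a coding transcript's 5′ end, and it takes the signal value of its strongest such peak. Bound thus describes a listed region near a gene and not an effect on its transcription.

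Nuclear hormone receptors are transcription factors with a zinc-finger DNA-binding domain and a domain that can hold a small lipophilic ligand, such as a sterol, a fatty acid or a bile acid. In nematodes the family is greatly expanded, mostly by receptors related to vertebrate HNF4, and most of these have no known ligand. Worm members with known functions adjust fat storage and desaturation, propionate breakdown, sterol balance, moulting and responses to food, toxins and low oxygen. Jun and Fos family proteins bind DNA as pairs, and the element best known for them in other animals is TGACTCA, which reads TGAGTCA on the other strand.

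Of the 36 IDR summits at nhr promoters, 3 had this AP-1 element within 50 bp, at nhr-50, nhr-206 and nhr-207. They are shown because they are the nhr promoters at which the element of the immunoprecipitated factor's family stood close to the summit. The sequences are 101 bases of build ce11, plus strand, 5′ to 3′, centred on the summit, with the AP-1 match in capitals.
nhr-50, chrV:16000607-16000707: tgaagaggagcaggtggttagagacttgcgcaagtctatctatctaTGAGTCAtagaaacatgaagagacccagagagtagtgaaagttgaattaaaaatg
nhr-206, chrV:12091897-12091997: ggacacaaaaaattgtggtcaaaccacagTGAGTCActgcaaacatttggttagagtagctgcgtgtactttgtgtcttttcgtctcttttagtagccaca
nhr-207, chrV:12096029-12096129: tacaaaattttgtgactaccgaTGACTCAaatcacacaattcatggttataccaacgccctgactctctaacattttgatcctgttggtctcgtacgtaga
At nhr-50 the match spans the summit itself, and the window runs past the annotated 5′ end of the gene, which is on the minus strand. nhr-206 and nhr-207 stand in the same cluster, and their windows do not overlap.

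The next sequences are those of the 6 strongest other intergenic nhr summits, shown because they carry different motifs or none of those searched. They have the same length, build and strand, and capitals mark a GATA match (TGATAA, or TTATCA on the other strand) or the E-box CACGTG.
nhr-291, chrV:15318777-15318877: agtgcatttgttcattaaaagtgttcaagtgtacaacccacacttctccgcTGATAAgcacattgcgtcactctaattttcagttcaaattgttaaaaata
nhr-68, chrV:11572990-11573090: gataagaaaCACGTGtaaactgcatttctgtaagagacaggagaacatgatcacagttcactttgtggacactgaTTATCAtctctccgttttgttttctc
nhr-48, chrX:15707580-15707680: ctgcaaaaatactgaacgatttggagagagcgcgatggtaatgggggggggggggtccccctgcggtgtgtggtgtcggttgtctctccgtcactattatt
nhr-58, chrV:532167-532267: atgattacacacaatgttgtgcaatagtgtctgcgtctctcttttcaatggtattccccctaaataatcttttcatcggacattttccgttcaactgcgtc
nhr-119, chrII:2800947-2801047: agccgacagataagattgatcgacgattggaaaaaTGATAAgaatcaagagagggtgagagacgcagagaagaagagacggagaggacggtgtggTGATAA
nhr-135, chrV:7093934-7094034: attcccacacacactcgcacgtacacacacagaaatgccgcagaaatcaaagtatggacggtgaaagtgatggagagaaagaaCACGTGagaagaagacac
nhr-291 has the GATA letters just beside its summit, nhr-68 has both an E-box and a GATA match, and nhr-48 and nhr-58 have neither.

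Across the 36 summits the AP-1 element was found at 8.33% (exact Clopper-Pearson 95% interval 1.75 to 22.5%), against 3.40% of all 2738 IDR peaks. GATA matches, searched as TGATAA and its reverse complement, stood at 12 of 36 nhr summits (33.3%, interval 18.6 to 50.97%), against 24% of all IDR peaks. CACGTG was present at 5 of 36 (13.9%, interval 4.67 to 29.5%), against 6.98%, at nhr-68, nhr-99, nhr-104, nhr-135 and nhr-32. None of the 36 held the CRE element TGACGTCA, a run of GAGAGAGA or the nuclear receptor half-site AGGTCA, against 1.13%, 6.28% and 2.85% of all IDR peaks. A count of 0 of 36 allows a share of up to 9.74%. All of these intervals contain the share over all IDR peaks. Matches were taken on both strands, no searched motif contains another, and a match is only a run of letters in the window. The windows at nhr summits had a GC content of 41.6 ± 6.70% (SD, 36 windows), against 43.7 ± 8.39% over all 2738 IDR windows.

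JUN-1 regions of the IDR list lay at the promoters of 36 of the 269 nhr genes, or 13.4% (interval 9.55 to 18.0%). Among the other coding genes 1862 of 19704 were bound (9.45%, interval 9.04 to 9.87%), and over all coding genes 1898, or 9.50%. In the longer pooled list 134 nhr genes (49.8%, interval 43.7 to 55.9%) had a summit in the window, against 39.0% of other genes and 39.2% of all. In replicate 1 there were 142 nhr genes with a summit (52.8%), against 45.4% of other genes and 45.5% of all. In replicate 2 there were 151 (56.1%), against 45.7% of other genes and 45.8% of all. Once a gene had a pooled region, the share that was also in the IDR list was 36 of 134 (26.9%) for nhr genes and 1862 of 7694 (24.2%) for other genes. The intervals cover counting error only and treat genes as independent, which neighbouring nhr genes and genes sharing a peak are not.

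Every nhr gene fell in 1 of 6 classes. Beside the 36 bound genes, 98 had a pooled region that did not enter the IDR list, 3 had regions in both replicate lists only, 23 in replicate 1 only, 22 in replicate 2 only and 87 in no list. The class with no list held 32.3% of nhr genes and 40.4% of other coding genes. Repeated sequence can hide a promoter from short reads, so the share of 32-base words in each window that occur once in the genome was counted. Its median was 100% in each class with a region and 99.0% in the class with none. The 5 nhr genes with under 50% unique words were all in no list. They are nhr-244 at 7.21%, nhr-259 at 11.2%, nhr-73 at 23.7%, nhr-141 at 24.6% and nhr-245 at 49.9%. The lowest value of a bound nhr gene was 75.8%, at nhr-121. Whether reads with several matches were kept is not given in the sources used here, and the part of repeats in the missing regions was not tested.

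Genes with more annotated 5′ ends offer more windows, and nhr genes were compared with others within such classes. With a single 5′ end, 14 of 174 nhr genes were bound (8.05%), against 7.48% of 14549 other genes. With 2 or more ends, 22 of 95 nhr genes were bound (23.2%), against 15% of 5155 other genes. The wider gap thus stood among genes with several 5′ ends. The number of ends still varies within that class, and nhr and other genes were not matched for it there.

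The bound nhr genes had mid-range signals. Their IDR signal value ran from 32.5 to 112 with a median of 44.9, against a median of 48.98 and a maximum of 378 among other bound genes. Over all IDR peaks the median was 47.7 and the range 31.4 to 474. Of the 36, 8 were in the top 25% of the IDR list and 16 in its top 50%, and the best rank was 197. Just inside the list stood nhr-56 at 32.5, and just outside it nhr-57, whose pooled region had 30.1.

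The strongest nhr promoter was that of nhr-291, a gene in a cluster of 3 near the right end of the centre of chromosome V, with an IDR signal of 112. Its region had 48.5 in replicate 1 and 61.7 in replicate 2, and the summit lay 134 bp upstream of the 5′ end. Neither neighbour in that cluster, nhr-246 or nhr-247, was bound. nhr-50, also on chromosome V, followed with 108, from 29.7 in replicate 1 and 78.3 in replicate 2, and a summit 26 bp upstream. Its value in replicate 2 was 2.64 times that in replicate 1, a wider gap than at nhr-291, where the ratio was 1.27. nhr-47 reached 102, with 43.6 in replicate 1 and 58.3 in replicate 2, at a summit 12 bp upstream. That summit lies inside the noncoding RNA gene C24G6.10, and the peak is also in the window of dnj-19, a DnaJ-type chaperone gene on the opposite strand, 384 bp upstream of its 5′ end. For nhr-47 the assignment to 1 gene therefore cannot be made from position alone.

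nhr-68 encodes a receptor that, with NHR-10, turns on the propionate shunt, the alternative route by which worms degrade propionate when vitamin B12 is scarce. Its IDR signal was 106, with 48.6 in replicate 1 and 56.1 in replicate 2, so that both replicates gave it a high rank. The summit lay 400 bp upstream of nhr-68 but only 50 bp upstream of H12C20.7, a divergent coding gene. When each peak was given to the nearest 5′ end alone, nhr-68 had no peak. Its partner nhr-10 was not bound in the promoter window. nhr-10 had a pooled region of 12.2, a region of 8.48 in replicate 2 and none in replicate 1. A separate IDR peak of 67.1, with 19.5 in replicate 1 and 49.2 in replicate 2, lay 1380 bp upstream of nhr-10, at chrIII:7116623-7117012, outside the window. nhr-114, a receptor tied to the methionine and S-adenosylmethionine cycle, had a pooled region of 17.2, with 6.004 in replicate 1 and 12.4 in replicate 2, and was not bound.

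None of the 5 propionate shunt genes listed here was bound, against 9.50% of all coding genes. A pooled region was present at 4 of them (80%), against 39.2% of all coding genes. With so few genes, neither count shows a share that differs from that of all coding genes. In the pooled list alh-8, the last dehydrogenase of the shunt, had 29.2 and hach-1, the acyl-CoA hydrolase, 28.5. hphd-1 had 12.97 and ech-6 9.34, while acdh-1, the acyl-CoA dehydrogenase that opens the shunt, had no region in any list. Among 10 genes of propionyl-CoA breakdown and the methionine cycle, 2 were bound (20%, against 9.50% of all coding genes). They are mthf-1, the methylenetetrahydrofolate reductase, at 36.8 (16.1 in replicate 1 and 20.8 in replicate 2), and pccb-1, a propionyl-CoA carboxylase subunit, at 35.3 (13.6 and 20.9). Both values are near the lower end of the IDR list.

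Receptors of fatty acid metabolism were bound in 3 of 4 cases, against 9.50% of all coding genes. With 4 genes, listed with earlier results of these data known, this count does not show a higher share. nhr-66 has 7 annotated 5′ ends and nhr-49 has 6, and nhr-66 was not bound when only the outermost end was used. nhr-49, an HNF4-type receptor that controls fatty acid desaturation and mitochondrial oxidation and the response to fasting, had 63.9, with 25.8 in replicate 1 and 36.5 in replicate 2. nhr-80, which acts with NHR-49 on the stearoyl-CoA desaturases, had 46.2, with 15.4 in replicate 1 and 31.5 in replicate 2. nhr-66, which partners NHR-49 in lipid remodelling, had 44.7, with 31.01 in replicate 1 and 29.96 in replicate 2. The 2 replicate values were thus almost equal at nhr-66 and differed by a factor of 2.05 at nhr-80, but the lists are scaled separately. By rank, the nhr-66 region was 576 in replicate 1 and 1257 in replicate 2. nhr-13, also a partner of NHR-49, was the exception, with a pooled region of 12.1 and 3.87 and 11.1 in replicates 1 and 2. The nhr-80 peak is shared with H10E21.1, whose 5′ end is 954 bp away, while that of nhr-80 is 51 bp from the summit.

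Genes known to respond to these receptors were read from the same lists. fat-6, a stearoyl-CoA desaturase gene, was bound at 54.1 (18.7 in replicate 1 and 33.1 in replicate 2). acs-2, an acyl-CoA synthetase gene of fatty acid oxidation, was bound at 83.2 (33.4 and 51.9). fmo-2, a flavin-containing monooxygenase gene, was bound at 73.6 (19.98 and 51.9). The other desaturase genes were not bound: fat-7 had a region of 6.82 in replicate 2 alone and fat-5 had none. So 3 of these 5 genes were bound, against 9.50% of all coding genes, and all 3 had the higher value in replicate 2. With 5 genes, listed with earlier results of these data known, this count does not show an excess.

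Both sterol-type receptors were bound, against 9.50% of all coding genes. With 2 genes, this does not show a higher share. nhr-8, a relative of DAF-12 with roles in cholesterol balance and toxin resistance, had 65.2, with 25.8 in replicate 1 and 39.7 in replicate 2, at a summit in its 5′ UTR. nhr-48, another receptor of that subfamily, had 97.6, with 43.9 in replicate 1 and 52.1 in replicate 2, at a summit 583 bp upstream. A further 2 IDR peaks lay outside the nhr-48 window, the stronger with 55.1 at 3390 bp upstream. daf-12 itself, the dafachronic acid receptor, was not bound. It had a pooled region of 15.6, and 8.84 and 11.99 in replicates 1 and 2. None of the 4 dafachronic acid synthesis genes was bound, against 9.50% of all coding genes, and 1 had a pooled region (25%), against 39.2%. With so few genes, these counts do not show a shortfall. daf-9 had a pooled region of 10.3, and daf-36 had no region in any list. dhs-16 had regions in the replicate lists alone, 7.10 in replicate 1 and 5.02 in replicate 2, and hsd-1 had 11.07 in replicate 2 alone.

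Of the other HNF4-type receptors considered, 2 of 3 were bound, beside the same 9.50% of all coding genes. With 3 genes, this does not show a higher share. nhr-69 had 40.1, with 16.5 in replicate 1 and 22.01 in replicate 2. nhr-35 had 62.5, but this rested on replicate 2, with 48.4 there and 7.17 in replicate 1. In the replicate 1 list the nhr-35 region ranked 8715 of 27417, and in the replicate 2 list 441 of 28475. nhr-64 was just below the list, with a pooled region of 29.0 and 8.32 and 19.4 in replicates 1 and 2.

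Moulting and timing receptors had regions in the pooled list in 5 of 5 cases and in the IDR list in 1, against 39.2% and 9.50% of all coding genes. With 5 genes, these counts do not show a higher share. nhr-85, a REV-ERB-type receptor of larval timing, had 42.4, with 22.3 in replicate 1 and 19.6 in replicate 2, at a summit in its own intron 959 bp upstream of the nearest 5′ end. nhr-41 had a pooled region of 27.5 (15.5 in replicate 1 and 14.9 in replicate 2). nhr-25, the SF-1-type receptor needed for moulting, had 27.2 (15.7 and 12.7), and nhr-23, a ROR-type receptor also needed for moulting, had 18.6 (10.5 and 8.88). These 3 had the higher value in replicate 1, unlike most bound members. nhr-91 had the lowest pooled value of the group, 13.

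Of the 5 listed receptors of embryonic and tissue development, 0 were bound and 1 had a pooled region, against 9.50% and 39.2% of all coding genes. With 5 genes, such counts do not show a shortfall. nhr-67, a Tailless-type factor, nhr-6, of the NR4A type, and nhr-2, an early embryonic factor, had no region in any list, and neither had nhr-1. nhr-60 had a region of 4.98 in replicate 1 only. nhr-40 had a pooled region of 12.1, with 5.40 in replicate 1 and 6.57 in replicate 2. The 5 receptors with other names gave the same counts, 0 bound and 1 with a pooled region, that of daf-12. Among them, sex-1, an X chromosome counting factor, had 3.98 in replicate 1 only, and unc-55, fax-1 and odr-7, which specify neurons, had none.

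Single receptors with responses to food, metals, microbes or oxygen had pooled regions, and none was bound. Over all coding genes the shares were 39.2% and 9.50%. nhr-57, a gene induced by hypoxia, had a pooled region of 30.1, with 12.8 in replicate 1 and 18.8 in replicate 2, the highest of any unbound nhr gene. nhr-86, a sensor of a bacterial metabolite, had 22.9, with 4.78 in replicate 1 and 17.8 in replicate 2. nhr-14, which acts in iron uptake, had 11.7 in the pooled list, and nhr-62, required for the long life of diet-restricted worms, 10.8. Over all 27 nhr genes given a role here, 9 were bound (33.3%) and 22 had a pooled region (81.5%). Over the remaining 242 nhr genes, 27 were bound (11.2%) and 112 had a pooled region (46.3%). Most of the 27 have 2 or more annotated 5′ ends, with 7 at nhr-66 and 6 at nhr-49 and nhr-23. Among all nhr genes 23.2% were bound with 2 or more ends and 8.05% with 1, and the role gap was not split by number of ends. The role list was also written with earlier results of these data known, so the gap is only a description of these 27 genes.

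Cofactors through which receptors act were bound in 2 of 3 cases, against 9.50% of all coding genes. cbp-1, a histone acetyltransferase coactivator, had the highest value of the 32 genes listed around the receptors, 201, with 105 in replicate 1 and 98.0 in replicate 2, at a summit 872 bp upstream. din-1, the corepressor that binds DAF-12, had 93.5, with 41.2 in replicate 1 and 49.1 in replicate 2. mdt-15, the Mediator subunit that works with NHR-49, had a pooled region of 22.4 and was not bound. Of those 32 genes, 7 were bound (21.9%) and 20 had a pooled region (62.5%), against 9.50% and 39.2% of all coding genes. This list too was chosen with earlier results of these data known. Its shares, and those of the cofactors and receptor targets within it, therefore only describe the listed genes.

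The remaining bound nhr genes are not in the role list, and their signal values ran from 81.4 at nhr-58 to 32.5 at nhr-56. On chromosome V, nhr-58 had 81.4 (37.7 in replicate 1 and 45.8 in replicate 2) and nhr-135 had 68.03 (30.8 and 37.2). nhr-119 on chromosome II had 73.8 (37.7 and 34.99), at ranks 369 in replicate 1 and 891 in replicate 2. A middle group on V comprised nhr-99 at 54.1, nhr-178 at 52.0, nhr-55 at 50.5 and nhr-206 at 49.1. nhr-178 was among the few with the higher value in replicate 1, 31.2 against 19.7 in replicate 2. On chromosome IV, nhr-105 had 51.7, nhr-97 45.1 and nhr-104 42.4. The microRNA gene cel-mir-5551 lies within 500 bp of the nhr-97 summit, and the nhr-255 summit on X, at 43.1, lies in a tRNA gene. Between 41.7 and 36.7 stood nhr-88, nhr-142, nhr-168, nhr-232, nhr-228 and nhr-121, and nhr-131 had 43.2. The 6 weakest were nhr-31 at 36.1, nhr-79 at 35.7, nhr-32 at 34.3, nhr-207 at 33.2, nhr-193 at 32.8 and nhr-56 at 32.5.

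**Figure D1:**
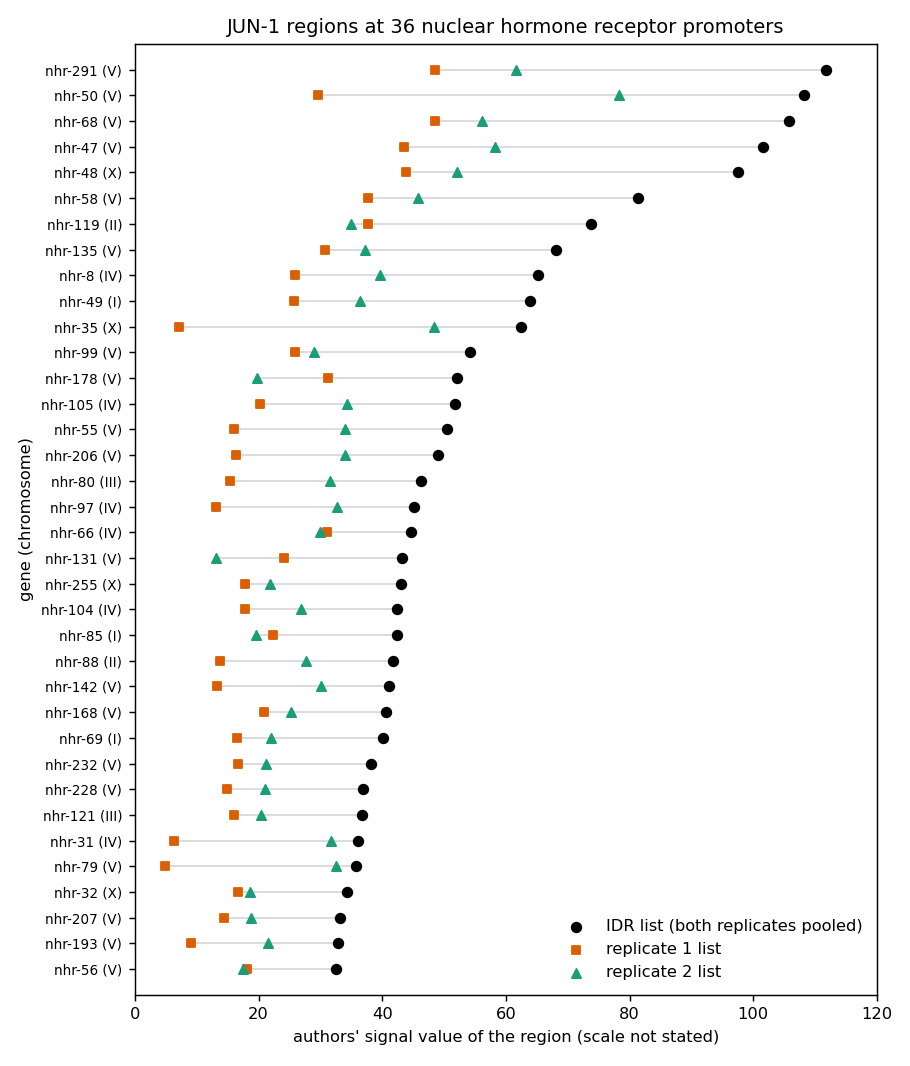
Signal value of the strongest region in the promoter window of each of the 36 bound nhr genes, in the IDR list, with the replicate 1 and replicate 2 regions whose summit lies within 200 bp of it, in the authors' score units; genes run in order of IDR signal. nhr-291, nhr-50, nhr-68 and nhr-47 exceed 100 in the IDR list, and replicate 1 is far below replicate 2 at nhr-35 and nhr-79.

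All 36 regions had a summit within 200 bp in both replicate lists, as had 2702 of all 2738 IDR peaks. Within 100 bp, 29 of the 36 had one. The IDR list was made from these replicate lists, so such matches are not independent support. Each gene's strongest window region in each replicate list was also ranked. It was among the 2738 strongest of both lists at 27 of 36 genes (75%), against 68.5% of other bound genes. At nhr-31 and nhr-142 that region was not the matched one in replicate 1 (14.4 against 6.24, and 14.97 against 13.3). The matched region had the higher value in replicate 2 at 30 of 36. The ratio of replicate 2 to replicate 1 had a median of 1.32 and ran from 0.543 at nhr-131 to 6.75 at nhr-35, against a median of 1.404 over the 2702 IDR peaks matched in both. It exceeded 2 at 11 nhr genes (30.6%), against 22.5% of all matched IDR peaks. The widest gaps after nhr-35 were those of nhr-79, 4.83 in replicate 1 and 32.6 in replicate 2, and nhr-31, 6.24 and 31.7. At nhr-79 the replicate 1 region ranked 17753. The lists are scaled separately, so the common excess of replicate 2 is not a measured difference in binding.

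Most summits at nhr genes lay within 500 bp of the nearest annotated 5′ end. A gene with more ends can have a shorter such distance. Of the 36 bound nhr genes, 22 had 2 or more ends, as had 774 of 1862 other bound genes. Distances were not compared at an equal number of ends. Of the 36, 31 were upstream and 5 downstream, and the median position was 174 bp upstream, against 234 bp upstream for other bound genes. Within 100 bp of the 5′ end lay 14 (38.9%), against 18.9% of other bound genes, and 7 lay beyond 500 bp. The summit was intergenic at 24 genes, in a 5′ UTR at 8, in an intron at 2 and in a noncoding gene at 2. Only 5 of 36 nhr genes (13.9%) shared their strongest peak with another coding gene, whereas 799 other bound genes (42.9%) did. Those 5 are nhr-68, nhr-47, nhr-80, nhr-142 and nhr-206, and no peak was shared by 2 nhr genes. nhr-142 and F44E7.9 are divergent, with 5′ ends 517 and 160 bp from the summit.

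**Figure D2:**
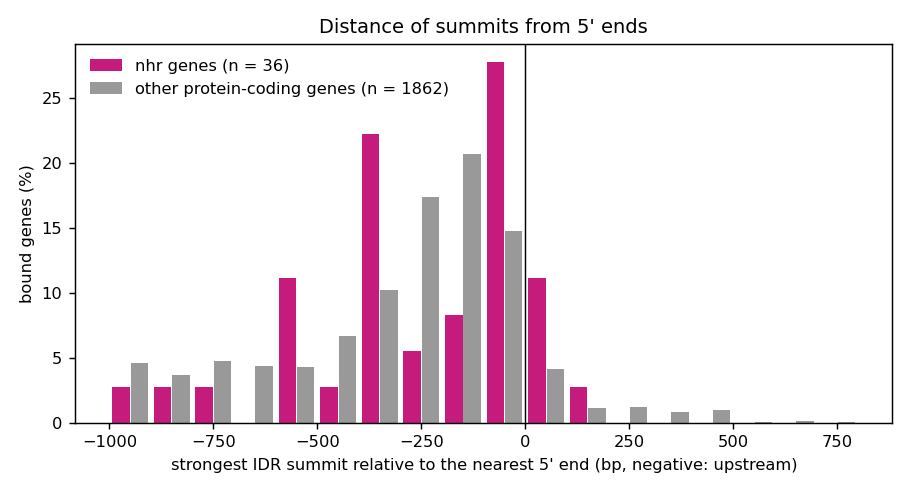
Distance in bp from the nearest 5′ end of the gene to the summit of its strongest IDR peak, negative upstream, as the percent of bound nhr genes (n = 36) and of other bound genes (n = 1862) in bins of 100 bp. The tallest nhr bar is the bin just upstream of the 5′ end with 10 genes (27.8%), against 14.8% of other bound genes, and the next is 300 to 400 bp upstream with 8 (22.2%), against 10.2%.

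Chromosome V carries 167 of the 269 nhr genes (62.1%). On V, 19 of 167 nhr genes were bound (11.4%, interval 6.99 to 17.2%), against 7.02% of other genes there. On the other chromosomes together 17 of 102 were bound (16.7%), against 10.2% of other genes there. The nhr share was above that of other genes on each chromosome, but outside V it rested on 2 to 6 genes. It was 3 of 23 on I (13% against 11.3% of other genes), 2 of 15 on II (13.3% against 8.50%), 2 of 8 on III (25% against 12.8%), 6 of 33 on IV (18.2% against 8.77%) and 4 of 23 on X (17.4% against 10.6%). On each chromosome the interval for nhr genes contained the share of other genes. X had pooled regions at 17 of 23 nhr genes (73.9%), against 41.2% of other genes. I was the only chromosome with the nhr share below that of others in the pooled list, 7 of 23 (30.4%) against 42.2%. Of the 5 nhr genes with few unique words, 4 lie on I, and the part of repeats in the pooled share there was not tested.

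**Figure D3:**
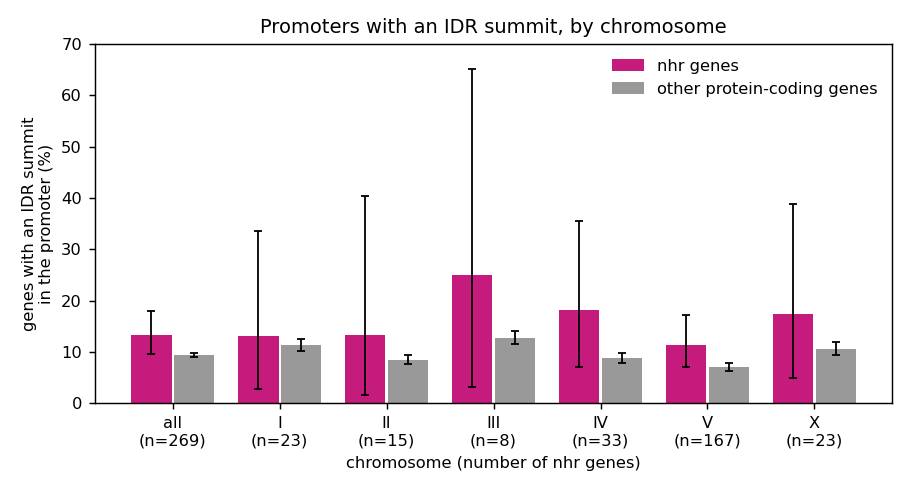
Percent of nhr genes and of other protein-coding genes with an IDR summit in the promoter window, for all chromosomes together and for each of the 6; bars start at 0, and the lines on them are exact 95% Clopper-Pearson intervals. The nhr bar is the higher of each pair, at 13.4% against 9.45% over all and 11.4% against 7.02% on V, with wide intervals where a chromosome has few nhr genes.

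Position along the chromosome was split into a centre, from 25% to 75% of its length, and arms. In centres 19 of 109 nhr genes were bound (17.4%), against 10.3% of other genes. On arms 17 of 160 were bound (10.6%), against 8.39% of other genes. On V the same order held, with 9 of 56 in the centre (16.1%, other genes 8.92%) and 10 of 111 on the arms (9.01%, other genes 4.87%). On IV all 6 bound genes were among the 20 in the centre and none among the 13 on the arms. On II and III the bound nhr genes, 2 on each, were all on arms. On X the arms also had the higher share, 2 of 9 (22.2%), with 2 of 14 in the centre (14.3%), so the order was not shared by all chromosomes.

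**Figure D4:**
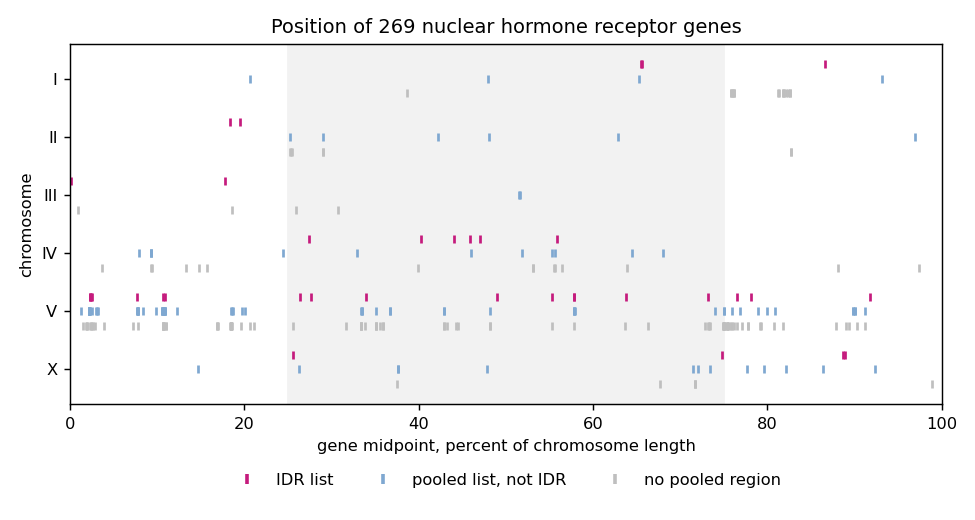
Position of the 269 nhr genes along the 6 chromosomes, as a percent of chromosome length, with the 36 bound genes, those with a pooled region only and those without one in separate colours and heights; shading marks the centre from 25% to 75%. Most genes lie on V, where 19 are bound, and the 6 bound genes of IV are all in the centre.

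Many nhr genes stand in tandem. Runs of 3 or more nhr genes with gaps of at most 10 kb formed 22 clusters, 16 of them on V, with 115 genes. In clusters 10 of 115 were bound (8.70%) and 53 had a pooled region (46.1%). Outside clusters 26 of 154 were bound (16.9%) and 81 had a pooled region (52.6%). Over all coding genes the shares were 9.50% and 39.2%, so the bound share in clusters was near that of all genes. Every bound gene in a cluster lies on V, where 11.4% of all nhr genes and 7.02% of other genes were bound. The gap between genes in and outside clusters was not examined within V, so it was not separated from a difference between chromosomes. Bound genes lay in 7 clusters, 2 clusters held more than 1, and 5 clusters had no pooled region at all. The cluster with the most genes, 12 over 45.8 kb at chrV:451451-497297, had pooled regions at 10 genes and 3 bound genes, nhr-99, nhr-55 and nhr-131. The summits of nhr-99 and nhr-55 lie 60 and 339 bp upstream, and nhr-131 has its summit 59 bp downstream. The 7 genes at chrV:12092006-12109313 had pooled regions at 6 and 2 bound genes, nhr-206 and nhr-207, whose AP-1 matches are printed above. The share of genes with a pooled region differed between clusters. It was 6 of 7 in the cluster of nhr-178, 6 of 9 in that of nhr-228 and 5 of 9 in that of nhr-56, each with 1 bound gene. The 9 genes from nhr-185 to nhr-124 at chrV:3844429-3886204 had 2 pooled regions and none bound, and the 8 from nhr-51 to nhr-53 at chrV:15674007-15702363 likewise 2 and none. The nhr genes of a cluster were thus not bound as a block, and within the 12-gene cluster bound genes stood beside unbound ones.

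**Figure D5:**
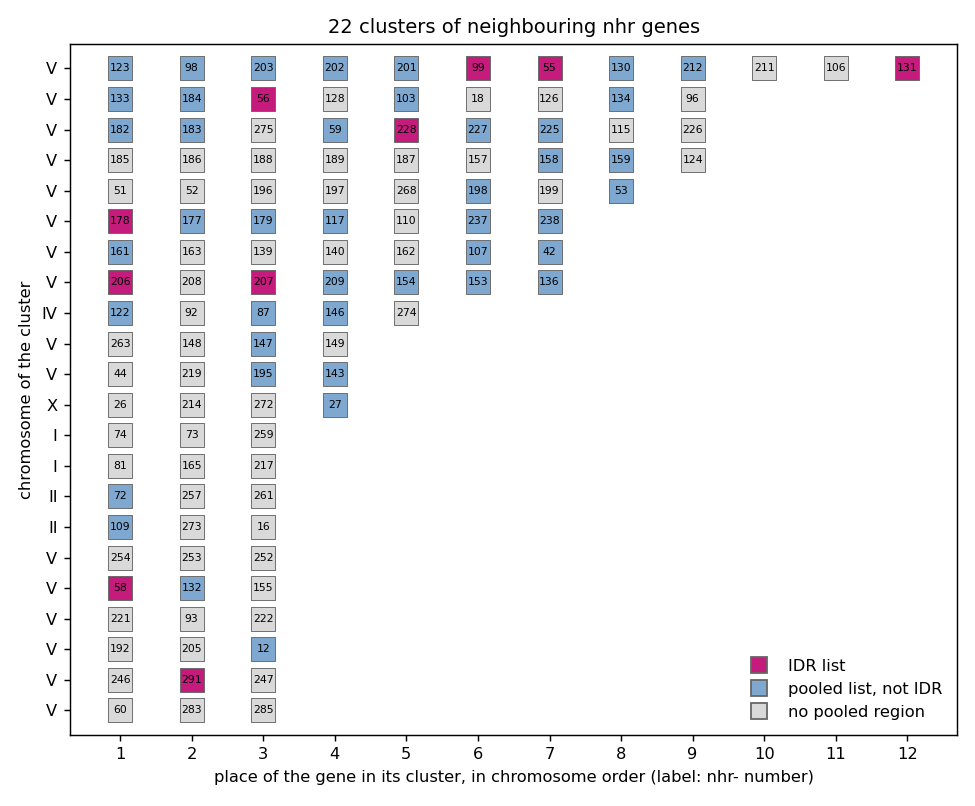
The 22 clusters of nhr genes, 1 row each with its chromosome on the vertical axis and the genes in chromosome order on the horizontal axis, coloured by whether the gene is in the IDR list, in the pooled list only or without a pooled region. The 12-gene cluster on V, the top row, has 3 bound genes and 10 with a pooled region, and 5 clusters have no gene with a pooled region.

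A further 41 IDR peaks lay outside the promoter windows but were nearest to an nhr 5′ end or inside an nhr gene, and concerned 26 nhr genes. Of these, 19 have no IDR peak in their window. Over the whole IDR list, 1581 of 2738 peaks lay in a promoter. No such count of outside peaks was made for other coding genes, so these numbers do not show an excess at nhr genes. The strongest, 181 with 93.0 in replicate 1 and 86.9 in replicate 2, lay 2585 bp upstream of nhr-88 at chrII:2973955-2974135, where the promoter peak itself had 41.7. nhr-20 had a peak of 160 (61.2 in replicate 1 and 98.6 in replicate 2) at 4656 bp upstream. nhr-3 had a peak of 158 (63.2 and 94.97) in its own intron, 1901 bp downstream of a 5′ end, and nhr-19 one of 152 (59.9 and 90.8) in an intron, 1635 bp downstream. All 4 values exceed that of the strongest nhr promoter, nhr-291 at 112. nhr-46 had 5 such peaks, up to 65.5, and nhr-3, nhr-19, nhr-14 and nhr-34 had 3 each. The nhr-46 peaks at chrIV:5754046-5754435 and chrIV:5754253-5754642 overlap and share a matched replicate 2 value of 47.7. nhr-14, nhr-40 and nhr-41, which were unbound by the window, had peaks of up to 68.8, 43.0 and 41.5 outside it. A count of bound promoters therefore leaves out some of the strongest JUN-1 regions near nhr genes.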

How the data were processed

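The 2 samples, replicates 1 and 2 of 1 group by the labels, are ChIP-seq libraries of eGFP-JUN-1 in L3 larvae. The authors' narrowPeak lists exist for builds ce10 and ce11. Each replicate list comes from its own alignments with a control, the pooled list from both replicates, and the IDR list from the other 3, per text files the authors deposited. The authors' signal value (column 7) is a score of unstated scale. The aligner is not given in the sources used here, nor are the peak caller and the number of reads. Depth is therefore unknown. No p-value was computed.

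Only ce11 lists were used. Genes and 5′ ends came from Ensembl release 115 (WBcel235), and sequences from RefSeq's WBcel235 assembly. In each list a gene was scored by the strongest region whose summit lay from 1000 bp upstream to 500 bp downstream of any coding transcript's 5′ end. Replicate regions were matched to IDR summits within 200 bp. Intervals (95%, Clopper-Pearson, exact) cover counting error only. Motifs were searched within 50 bp of the summit. Unique words were 32 bases long.

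The members and lists were chosen with earlier results of these data known. Named are the 30 bound nhr genes of highest IDR signal, all members with a listed role, unbound members of high pooled signal and bound genes of the pathway list. The 6 weaker bound members, other pathway genes, the members of clusters, those with few unique words and those with peaks outside the window were named after their values were seen. Protein features and motif shares in a promoter table were planned and not analysed here. The scoring was tested on simulated regions. Scripts ran in Python 3.11.15 with pandas 2.3.3, numpy 2.4.6, matplotlib 3.10.9 and scipy 1.17.1. Alternatives changed the window, the assignment of peaks to genes, the number of peaks and the replicates used.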

Additional observations from a re-analysis of the deposited data

How the results depend on the processing

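With only the 1369 strongest IDR peaks, 16 nhr genes were bound (5.95%, against 4.94% of other genes), with 10 on V, 9 in chromosome centres and 5 of the role list. The share over all coding genes differed between alternatives too. A window of 500 bp upstream to 250 bp downstream gave 29 bound nhr genes (10.8%, all genes 7.29%), and one of 2000 bp upstream gave 44 (16.4%, all genes 12.3%). The nearest 5′ end gave 34 (12.6%, all genes 7.43%), the outermost 33 (12.3%, all genes 8.73%) and overlap 37 (13.8%, all genes 10.2%). The 2738 strongest regions of 1 replicate gave 37 to 39 (13.8% without replicate 1, all genes 9.43%; 14.5% without replicate 2, all genes 8.85%). The narrow window left 4 bound genes of the pathway list, and within 25 bp of the summit 16.7% of nhr peaks held the GATA letters, near the 13% of all IDR peaks. Of the 36 bound nhr genes, 13 were bound in all 8 alternatives. The nearest-end rule dropped nhr-68 and nhr-142. Without replicate 2, nhr-35, nhr-79, nhr-88, nhr-97 and nhr-193 were dropped, and without replicate 1, nhr-131, nhr-207, nhr-32 and nhr-56. No paired analysis was possible because there is 1 group. At unknown depth, an nhr gene in no list is not shown to lack JUN-1.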

Other observations

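nhr-143, the last gene of a 4-gene cluster on V, was the only unbound nhr gene with a region among the 2738 strongest of both replicates. Its region had 15.6 in replicate 1 (rank 2319) and 19.9 in replicate 2 (rank 2591), but the summits lay 567 bp apart. The strongest pooled region in its window had 26.02 (rank 3624).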
